A study of Homo sapiens with 16 samples.

Results

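Keratins are the intermediate filament proteins of epithelial cells. Each filament is built from pairs of an acidic type I keratin and a basic type II keratin, and nearly all of the genes lie in a type II cluster on chromosome 12 and a type I cluster on chromosome 17. Which pair a cell makes follows its lineage: KRT5 with KRT14 in the basal layer of stratified and glandular epithelium, KRT8 with KRT18 in simple and luminal epithelium, KRT6 with KRT16 and KRT17 in injured or proliferating epithelium, and a separate set in the hair shaft. Trimethylation of histone H3 at lysine 4 (H3K4me3) marks the start sites of active and poised genes, whereas trimethylation at lysine 27 (H3K27me3) is laid down by Polycomb complexes over silent genes.

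The keratin genes examined were every GENCODE protein-coding gene whose symbol is KRT followed by digits and an optional letter. This gave 55 of 20033 protein-coding genes, 27 in the type II cluster (784 kb, hg38 chr12:52168996-52952906, with the type I gene KRT18 at one edge) and 28 in the type I cluster (970 kb, hg38 chr17:40654665-41624842). By class there were 3 basal, 5 luminal, 5 stress and 17 hair keratins. A further 9 belong to the root sheath of the hair follicle, 11 to differentiating stratified layers and 5 to none of these.

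The cells were MCF-10A, a nontransformed human breast epithelial line. They received 5 mM octanoic acid (OA), a medium-chain fatty acid, or the vehicle PBS for 24 h, and chromatin was profiled by CUT&RUN, in which an antibody guides a nuclease to cut out the DNA around a mark. Each of H3K4me3 and H3K27me3 was profiled in 3 vehicle and 3 OA libraries, beside 2 untreated H3K4me3 and 2 untreated IgG control libraries. The comparison asks whether OA exposure moved either mark at keratin genes in these cells, and all libraries share the 1 cell line.

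A keratin counted as called in a library when a peak of a merged region lay within 3 kb of any of its annotated start sites. Covered length is the number of base pairs under such peaks. The lists held 16086 to 21033 H3K4me3 peaks and 9091 to 47648 H3K27me3 peaks per library, and total read numbers are not in them. The H3K4me3 library of vehicle replicate 3 stood apart. Its lowest local background was 0.45 reads against 0.633 to 0.853 in the other 5, and it covered 10.3 Mb against 14.3 to 21.2 Mb, so covered lengths and counts of keratins with H3K4me3 are also compared without it. That comparison, of 2 vehicle with 3 OA libraries, was chosen after the values were seen, and its exact permutation p cannot go below 0.1. Markers fitted the label in part. H3K4me3 was called in some library at 7 of 7 epithelial genes, against 66.8% of all genes. In all 6 libraries it was called at 3 of the 7, EGFR, ITGA6 and ITGB4, against 56.3% of all genes. CDH1, EPCAM, TP63 and LAMB3 had it in only some libraries. The markers of other cell types PTPRC, CD3E, PECAM1, CDH5, MYOD1 and GFAP had no H3K4me3 in any, as had 33.2% of all genes. Of 4 hormone-sensing luminal genes, FOXA1 and GATA3 had it in all 6 libraries and ESR1 and PGR in none.

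The bases just before the start differ between keratins. Those shown here set KRT5, with H3K4me3 in all 6 libraries, beside hair and root sheath keratins without H3K4me3. KRT10 is shown too, and its H3K4me3 region lies 2726 bp downstream of its start. The RefSeq promoter table (GRCh38.p14, 250 bases before to 50 after a start) held 34 of the 55. Of these, 16 (47.1%) had the letters TATAAA on the sense strand with the first T 35 to 20 bases before the start, against 2.21% of all 35116 promoters in the table. In all motif counts here a keratin gene counted once, by any of its starts, whereas each of all promoters counted singly. The 16 were 8 of 14 hair, 4 of 8 root sheath and 3 of 7 differentiation keratins plus KRT24, and not KRT5 or the luminal KRT20. The KRT8 start in the table, also without it, lies 21393 bp from the canonical start and outside both KRT8 regions with H3K4me3. No stress keratin was in the table, nor were KRT14, KRT7, KRT18 and KRT222. Among keratins with H3K4me3 over their start, the comparison therefore rests on KRT5 alone. The 60 bases before the start follow for KRT10 (chr17:40822615-40822674), the hair keratins KRT31 (chr17:41397609-41397668), KRT38 (chr17:41440984-41441043) and KRT85 (chr12:52367482-52367541), and the root sheath keratin KRT71 (chr12:52553146-52553205). For KRT5 the 30 bases from 35 to 6 before the start are shown. All are on the minus strand, written 5′ to 3′, with TATAAA in capitals.
KRT5: gaagggataaaaagggggcatcaccgttcc
KRT10: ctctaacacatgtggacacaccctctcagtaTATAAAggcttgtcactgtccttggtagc
KRT31: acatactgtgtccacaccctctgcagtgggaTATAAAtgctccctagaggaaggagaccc
KRT38: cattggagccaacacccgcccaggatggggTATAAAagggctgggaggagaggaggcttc
KRT71: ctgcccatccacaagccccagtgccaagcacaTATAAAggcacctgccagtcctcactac
KRT85: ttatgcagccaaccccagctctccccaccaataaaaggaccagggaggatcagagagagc
In KRT31 and KRT10 the run begins 29 bases before the start, in KRT38 30 and in KRT71 28. KRT5 and KRT85 hold the letters ATAAAA there instead, which the search did not count. Anywhere in the 300 bases, TATAAA occurred on either strand in 61.8% of the 34 keratins and 11.5% of all promoters. TGANTCA, the core of an AP-1 site, occurred on either strand in 0 of 34 and 7.71%, and GCCNNNGGC, the core of an AP-2 site, in 14.7% and 23.2%. These counts describe letters in a window and not bound factors, and they leave out most keratins with H3K4me3, which the table lacks.

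H3K4me3 lay over a small set of keratin genes, most of them basal, luminal or stress keratins. A peak within 3 kb was called in all 6 vehicle and OA libraries at 6 of 55 keratins (10.9%), against 56.3% of all protein-coding genes. These were KRT5 of the basal class, KRT7, KRT8 and KRT18 of the luminal class, and KRT6A and KRT17 of the stress class. In none of the 6 libraries was a peak called at 45 of 55 (81.8%), against 33.2% of all genes. The remaining 4 were KRT14, KRT6C, KRT10 and KRT222.

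**Figure D1:**
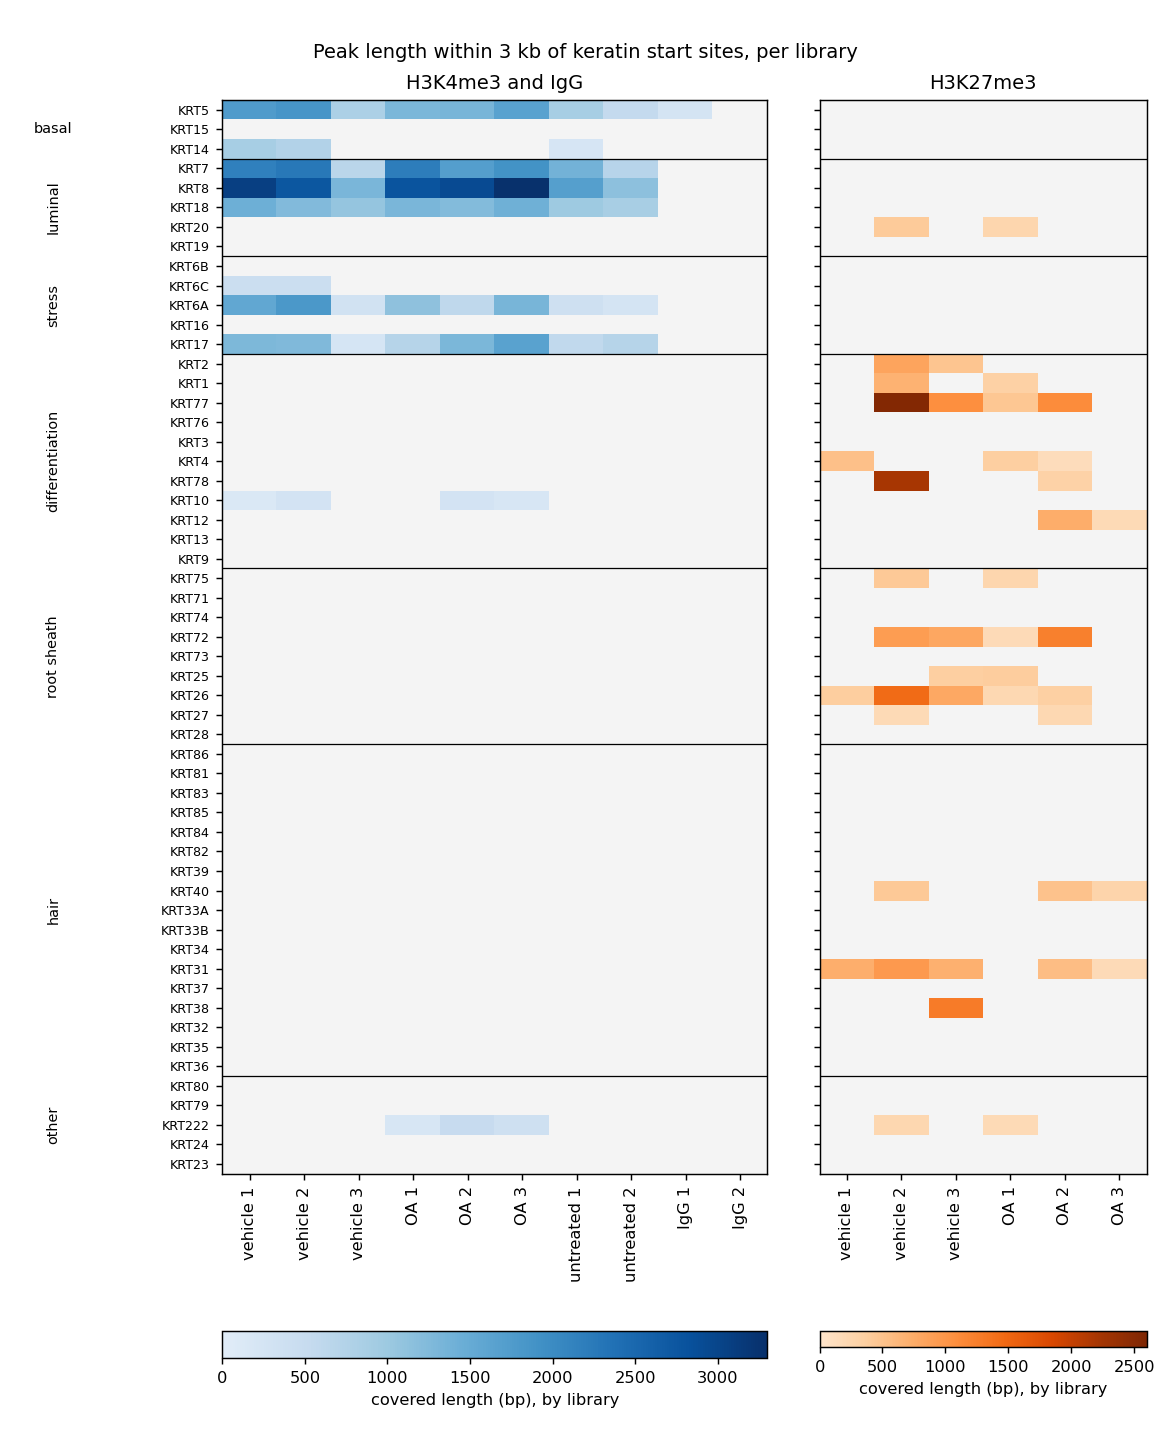
Covered length in bp (colour) within 3 kb of the start sites of all 55 keratin genes (rows, by class) in each library (columns), with H3K4me3 and IgG on the left and H3K27me3 on the right; grey means no peak. H3K4me3 sits mostly in basal, luminal and stress rows, with KRT10 and KRT222 outside them, whereas H3K27me3 of merged regions sits outside the basal and stress rows and is never called in all 6 libraries.

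The hair keratins had no H3K4me3 peak of a merged region in any library, 0 of 17, and neither had the 9 root sheath keratins and the 94 genes for keratin-associated proteins, which cross-link hair keratins and lie beside them on chromosome 17 in part. Within the lineage classes several members also lacked it. No H3K4me3 peak of a merged region was called at KRT15, a basal keratin of stem cell compartments, at KRT19 or KRT20 of the luminal class, or at KRT6B and KRT16 of the stress class. Peaks seen in 1 library alone, which were not kept, lay near KRT80 and KRT34 in OA replicate 3 and near KRT74 in vehicle replicate 3.

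Of the luminal keratins, KRT7, KRT8 and KRT18 held H3K4me3. At KRT8, the type II keratin of simple epithelium, covered length was 3083, 2742 and 1316 bp in vehicle replicates 1 to 3 and 2790, 2918 and 3280 bp in OA. The groups overlapped, with vehicle replicate 3 lowest (2380 ± 937 against 2996 ± 254 bp, SD, n = 3 each; exact permutation p = 0.4). At KRT18, its type I partner, the values were 1423, 1245 and 1072 bp in vehicle and 1315, 1222 and 1417 bp in OA (p = 0.7, exact permutation test). KRT8 and KRT18 lie side by side, and GENCODE places some KRT8 starts at the KRT18 promoter, so the region at chr12:52948868-52950336 counts for both. KRT8 also has its own region at chr12:52903246-52905141 over its canonical start. Without vehicle replicate 3 the mean difference of OA minus vehicle at KRT8 became 83.5 bp in place of 616 (exact permutation p = 0.7), and at KRT18 it turned from 71.3 to −16 bp (exact permutation p = 0.7).

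KRT7, another simple-epithelium type II keratin, was covered over 2153, 2267 and 667 bp in vehicle and 2195, 1708 and 1889 bp in OA, by a region at chr12:52232691-52235152 that runs across the start into the gene. Vehicle replicate 3 was again the lowest and the other 5 libraries overlapped (1696 ± 893 against 1931 ± 246 bp; exact permutation p = 0.9). Without it the difference of OA minus vehicle turned from 235 to −279 bp (exact permutation p = 0.3). All 3 of these luminal genes were called in each of the 6 libraries, so the luminal count was 3 of 5 throughout.

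Among basal keratins, KRT5 and KRT14 encode the pair that forms the filaments of basal cells, and their H3K4me3 differed. KRT5 was covered over 1740, 1846 and 821 bp in vehicle and 1304, 1329 and 1643 bp in OA. Those ranges overlapped (1469 ± 564 against 1425 ± 189 bp; exact permutation p = 0.9), and without vehicle replicate 3 the difference of OA minus vehicle became −368 bp in place of −43.7 (exact permutation p = 0.2). At KRT14 the values were 881 and 747 bp in vehicle replicates 1 and 2 and 0 in vehicle replicate 3 and in all 3 OA libraries. Because vehicle replicate 3 shared the 0 of the OA libraries, the groups overlapped (543 ± 475 bp against 0; exact permutation p = 0.4). Without it the difference was −814 bp and the groups did not overlap (exact permutation p = 0.1). In bulk chromatin, a mark in fewer cells and a weaker mark in each cell cannot be told apart.

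The KRT14 region, at chr17:41585586-41586466, begins 429 bp downstream of the start, overlaps an exon and reaches beyond it. The peak was supported by 48 reads at its summit in vehicle replicate 1 (fold 5.45 over local background) and by 15 in vehicle replicate 2 (fold 5.86). In the OA libraries the nearest H3K4me3 peak to the KRT14 start was 36.3 to 36.9 kb away, at KRT17, and in vehicle replicate 3 it was 36.9 kb away. Untreated library 1 had 208 bp at KRT14 (fold 3.96) and untreated library 2 none.

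KRT6C, a stress keratin of the KRT6 family, showed the same order of libraries. Its region at chr12:52473295-52473713 covered 410 and 419 bp in vehicle replicates 1 and 2 and was absent from vehicle replicate 3, the 3 OA libraries and both untreated libraries (276 ± 239 bp against 0; exact permutation p = 0.4). Without vehicle replicate 3 the difference was −414 bp (exact permutation p = 0.1). The peaks were short but steep, with 19 and 25 reads at the summit and folds of 9.08 and 13.7, and lay inside an exon. The nearest peak in the other 4 libraries was 17.7 to 18.7 kb away, at KRT6A.

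Across the genome, a peak in at least 2 vehicle and no OA libraries was rare: 14 of 20033 genes (0.0699%) had it, and 2 of the 14 were KRT14 and KRT6C. The rule was chosen after these values were seen, and without vehicle replicate 1 or without vehicle replicate 2 the count of keratins is 0, since a merged region needs 2 libraries. The other 12 were ELAPOR1, HHIPL2, COL7A1, RNF212, CAMK2B, TNNI2, LSP1, CD248, TGM5, MNS1, FAM83E and MYBL2. KRT6A, KRT6B and KRT6C are near-identical copies: of the 100-base sequences within 1 kb of the start, 25.7% at KRT6C, 21.4% at KRT6B and 14.4% at KRT6A occur again in hg38, so reads may have been split or dropped between them. The share was 4.89% at KRT14, 6.05% at KRT16 and 0.315% at KRT17.

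**Figure D2:**
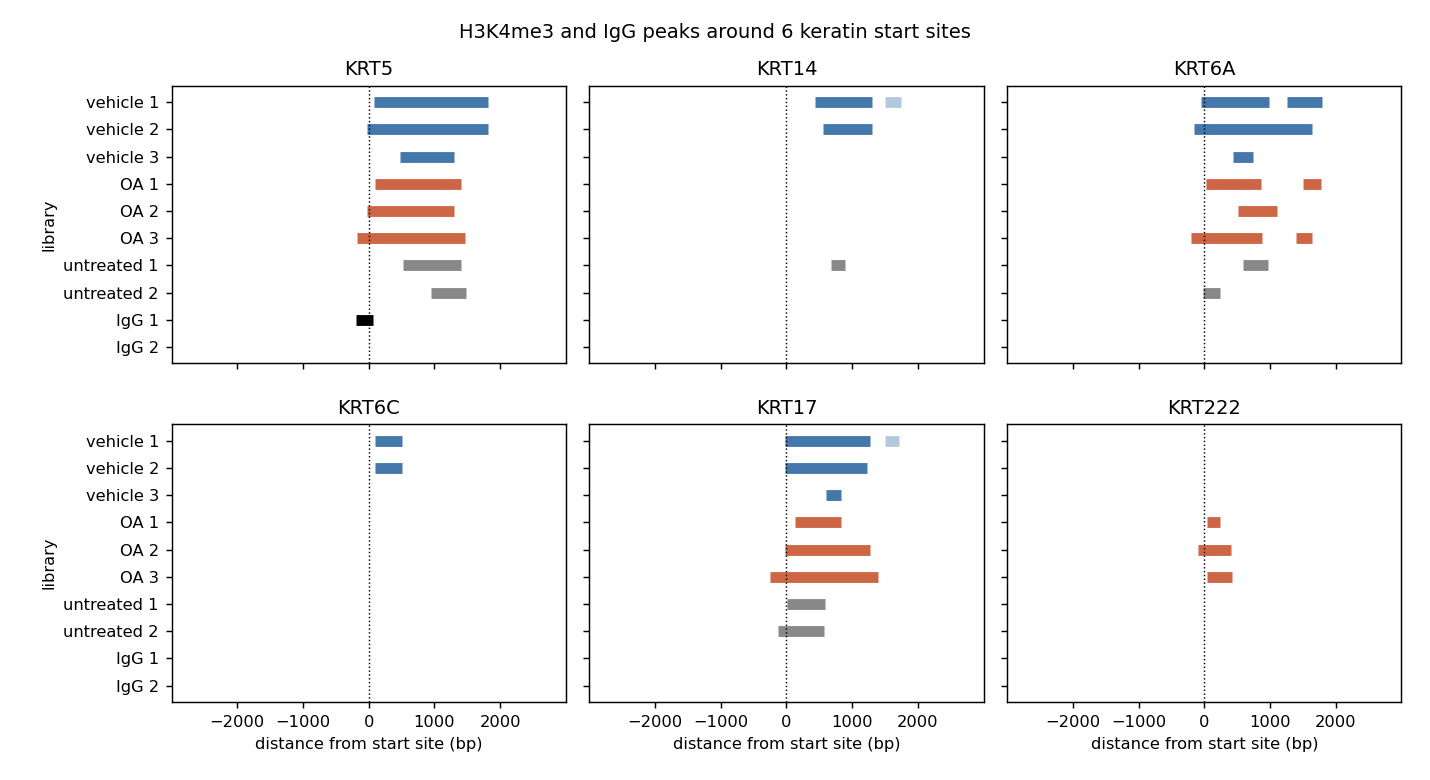
H3K4me3 and IgG peaks (bars) of each library (rows) within 3000 bp of the canonical start site (dotted line, transcription to the right) of 6 keratins; pale bars are peaks seen in 1 library that were not kept. Peaks at KRT14 and KRT6C appear in vehicle replicates 1 and 2 and no OA library, and those at KRT222 in the 3 OA libraries alone.

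KRT6A and KRT17 were the stress keratins with a peak in all 6 libraries. KRT6A was covered over 1562, 1808 and 303 bp in vehicle and 1118, 600 and 1323 bp in OA, with vehicle replicate 3 lowest (1224 ± 807 against 1014 ± 373 bp; exact permutation p = 0.7). At KRT17, a type I keratin of injured and basal-like epithelium, the values were 1288, 1248 and 228 bp in vehicle and 699, 1297 and 1649 bp in OA (921 ± 601 against 1215 ± 480 bp; exact permutation p = 0.5). Without vehicle replicate 3 the difference of OA minus vehicle became −671 bp in place of −211 at KRT6A (exact permutation p = 0.2) and turned from 294 to −53 bp at KRT17 (exact permutation p = 1). Summits varied between libraries, with 106, 101 and 9 reads at KRT6A in vehicle against 25, 16 and 43 in OA. At KRT5, 98, 173 and 15 reads in vehicle stood against 41, 30 and 40 in OA, so vehicle replicates 1 and 2 were above every OA library and vehicle replicate 3 below.

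KRT222, a divergent type I keratin-like gene at the edge of the chromosome 17 cluster, was the only keratin with a region in all 3 OA and no vehicle library, a pattern held by 0.874% of all genes. The region at chr17:40664758-40665266 covered 0, 0 and 0 bp in vehicle and 191, 502 and 378 bp in OA, so the groups did not overlap (mean difference 357 bp; exact permutation p = 0.1, the smallest that 3 against 3 allows, and 0.2 without vehicle replicate 3). Folds were 7.56, 7.35 and 6.97, on 13, 11 and 11 reads at the summit. The nearest vehicle peak was 16.5 to 16.7 kb away. The region also overlaps the start of ENSG00000264058, a readthrough gene, and neither untreated library had a peak there. When every library was cut to the same number of its strongest peaks, the count of such keratins became 0.

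KRT222 was the only 1 of 10 keratins with any H3K4me3 (10%) whose covered length was higher in every OA than every vehicle library. That follows from its calls in the 3 OA libraries alone, so it is not a second result. Over all 13392 genes with a peak the share was 9.37%, near that of the keratins. The reverse, lower in every OA library, held for 0 of the 10 and 0.306% of all. KRT10, the type I keratin of differentiating epidermis, was reached by a region 2726 bp downstream of its start at chr17:40818248-40819888, which overlaps the start of the antisense transcript KRT10-AS1. Its covered length was 145, 275 and 0 bp in vehicle and 0, 267 and 187 bp in OA, and the peaks were not at the KRT10 promoter printed above.

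Counted per library, 9, 9 and 6 keratins had H3K4me3 with vehicle and 7, 8 and 8 with OA (8 ± 1.73 against 7.67 ± 0.577; exact permutation p = 1). Total covered length was 11262, 11352 and 3335 bp in vehicle and 8297, 8621 and 10349 bp in OA (p = 1, exact permutation test). Without vehicle replicate 3 the mean difference of OA minus vehicle turned from 439 to −2218 bp (exact permutation p = 0.2). Basal keratins numbered 2, 2 and 1 in vehicle and 1 in each OA library, and stress keratins 3, 3 and 2 against 2 in each (both p = 0.4, exact permutation test). Without vehicle replicate 3 the difference was −1.33 for all keratins and −1 for each of the basal and stress classes (p = 0.1 for each, exact permutation test). The basal difference came from KRT14 alone and the stress difference from KRT6C alone, so neither adds to the values of those genes. Over all genes the library counts were 11406 to 12775 in vehicle and 12808 to 13338 in OA, without overlap (exact permutation p = 0.1), whereas the keratin counts overlapped.

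**Figure D3:**
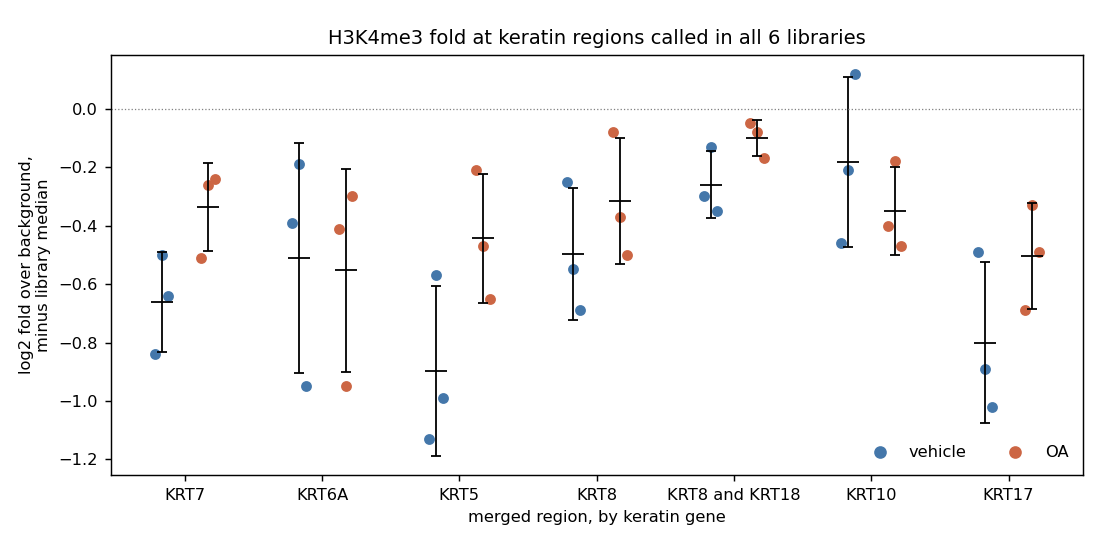
Log2 of the caller's fold over local background, minus the library's median, at the 7 keratin regions called in all 6 libraries; points are libraries (vehicle left, OA right), and bars are mean ± SD (n = 3). Every mean lies below the library median of 0, and the groups overlap at all 7 regions.

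The fold of H3K4me3 over local background could be compared at 7 keratin regions called in all 6 libraries. By the caller's p, their rank among all peaks of a library varied. It was percentile 46.4 to 77.7 at the region of KRT8 and KRT18, and 15.6 to 49 at KRT17. After each library's log2 fold was centred on its median, keratin regions lay below the typical region in fold. Of 42 values 41 were negative, the exception being KRT10 in vehicle replicate 3. KRT5 was at −1.13, −0.57 and −0.99 with vehicle and −0.21, −0.47 and −0.65 with OA, a difference of 0.45 on the log2 scale (SE 0.20). Its local background was 23.5, 23.9 and 2.07 reads with vehicle and 5.77, 3.32 and 5.81 with OA. Fold at KRT5 was thus higher on average with OA, although summit reads were higher in vehicle replicates 1 and 2. The part of local background in the fold difference was not tested. KRT7 was at −0.84, −0.50 and −0.64 with vehicle and −0.51, −0.26 and −0.24 with OA (difference 0.32, SE 0.17), KRT17 differed by 0.30 (SE 0.19) and KRT6A by −0.04 (SE 0.24). By limma with Benjamini-Hochberg adjustment over 11071 regions, 0 of the 7 passed, with adjusted p = 0.663 for KRT5 and 0.712 to 0.978 for the others. Before adjustment, limma gave p under 0.05 at 1 of the 7, KRT5 at 0.0402, and at 816 of all 11071 regions. After adjustment, limma called 1 of all regions (0.00903%).

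**Figure D4:**
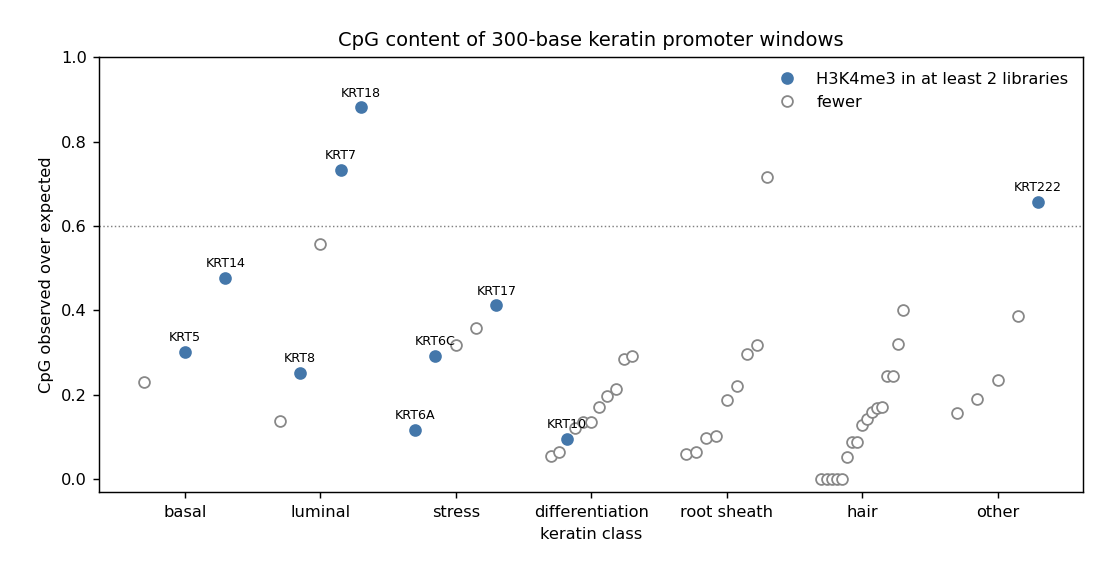
CpG observed over expected (vertical axis) in the 300 bases around the canonical start of each keratin gene, by class; filled points had H3K4me3 in at least 2 of the 6 libraries, and the dotted line marks 0.6. Most keratins lie under 0.4, with KRT7, KRT18, KRT222 and KRT72 above the line.

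Most H3K4me3 in mammals covers CpG-rich promoters, and keratin promoters are CpG-poor. The ratio of observed to expected CpG, from 250 bases before to 50 after the canonical start in hg38, had a median of 0.188 over 55 keratins and 0.775 over all protein-coding genes. It reached 0.6 at 4 keratins (7.27%) against 67.4% of all genes: KRT18 at 0.881, KRT7 at 0.732, KRT72 at 0.715 and KRT222 at 0.657. The first 2 were called for H3K4me3 in all 6 libraries, KRT222 in the 3 OA libraries and KRT72 in none.

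KRT5 (0.301), KRT8 (0.251), KRT6A (0.116) and KRT17 (0.412) held H3K4me3 in all 6 libraries with few CpG. KRT14 had 0.478 and KRT6C 0.292. Among keratins under 0.4, 5 of 47 had H3K4me3 in at least 2 libraries, and 20.5% of all 4851 genes under 0.4 did. Hair keratins ranged from 0 to 0.4 with a median of 0.128. KRT19, at 0.558, was the highest among the lineage keratins without H3K4me3.

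H3K27me3 lay at a different set. A peak within 3 kb was called in at least 1 library at 16 of 55 keratins (29.1%, against 13.8% of all genes), and in at least 4 libraries at 4 (7.27%, against 6.98%). In all 6 libraries it was called at 0, against 1.84% of all genes. None of the 3 basal and 5 stress keratins had a peak of a merged region in any library. Peaks seen in OA replicate 1 alone, which were not kept, lay near KRT6B and KRT6C. Of the luminal class KRT20, an intestinal keratin, alone had a peak of a merged region, in vehicle replicate 2 and OA replicate 1. The others were 6 of 11 differentiation, 5 of 9 root sheath and 3 of 17 hair keratins and KRT222.

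Of the 4 most often called, KRT72 and KRT26 belong to the inner root sheath, KRT31 to the hair cortex and KRT77 to sweat gland ducts. KRT77 was covered over 0, 2551 and 1066 bp in vehicle and 451, 1110 and 0 bp in OA, with overlap (exact permutation p = 0.7). KRT72 was covered over 0, 918 and 796 bp in vehicle and 171, 1233 and 0 bp in OA (p = 1, exact permutation test).

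KRT26 and KRT31 were lower in every OA than in every vehicle library. KRT26 had 370, 1447 and 788 bp in vehicle and 211, 342 and 0 bp in OA (868 ± 543 against 184 ± 173 bp). KRT31 had 722, 950 and 699 bp in vehicle and 0, 553 and 167 bp in OA (790 ± 139 against 240 ± 284 bp; both p = 0.1, the smallest an exact permutation test of 3 against 3 allows). This is 2 of the 16 keratins with a peak (12.5%), near the 10.5% of all 2762 genes with one. None was higher in every OA library, against 0.579%. KRT26 reversed when libraries were cut to equal numbers of peaks (61 bp higher in OA). The KRT31 difference became 0 in a 1 kb window, and both became 0 at a q-value of at most 1e-05.

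**Figure D5:**
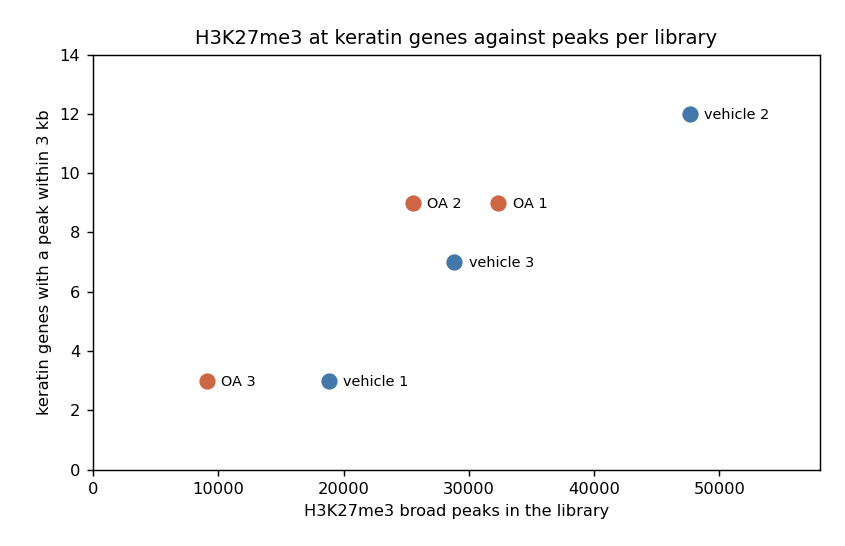
Keratin genes with an H3K27me3 peak within 3 kb (vertical axis) against the number of H3K27me3 broad peaks in the library (horizontal axis), for 3 vehicle and 3 OA libraries. The 2 libraries with fewest peaks, OA 3 and vehicle 1, had 3 keratins each, and vehicle 2, with most, had 12.

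The number of keratins called for H3K27me3 moved with the number of peaks in the list. It was 3, 12 and 7 in vehicle, from 18801, 47648 and 28850 peaks, and 9, 9 and 3 in OA, from 32363, 25540 and 9091 peaks (7.33 ± 4.51 against 7 ± 3.46; exact permutation p = 1). The part of peak number in the difference was not tested. Covered length was 1615, 11238 and 5470 bp in vehicle and 2559, 5126 and 623 bp in OA (p = 0.4, exact permutation test). That difference, −3338 bp, became −94 bp when libraries were cut to equal numbers of peaks. H3K27me3 peaks covered 0.878%, 2.03% and 1.17% of the type II cluster with vehicle, against 1.13%, 1.04% and 0.087% with OA. In the type I cluster they covered 0.597%, 2.91% and 1.7% with vehicle, against 0.799%, 1.17% and 0.323% with OA. The genome as a whole was covered over 0.119% to 0.855%, and both clusters exceeded it in every library except OA replicate 3 in the type II cluster.

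The 2 marks met at few keratins. Of the 10 keratins with H3K4me3 in at least 2 libraries, 1 (KRT222) had H3K27me3 in any library, and of the other 45, 15 (33.3%) had. The corresponding shares over all protein-coding genes were 7.05% and 27.3%. KRT222 was also the only keratin with both marks in at least 2 libraries each, a state of 4.56% of all genes. Its H3K27me3 peaks covered 230 bp in vehicle replicate 2 and 176 bp in OA replicate 1, in a region at chr17:40663229-40663458 that does not overlap its H3K4me3 region. A further H3K27me3 peak, in vehicle replicate 3 alone and not kept, lay at chr17:40664945-40665125, inside the H3K4me3 region.

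Genes that work with keratins are read against the 56.3% of all protein-coding genes with H3K4me3 in all 6 libraries. Of 11 partners that anchor keratin filaments or desmosomes, 9 had it in all 6 libraries (DSP, PPL, PKP3, JUP, DSG3, DSC3, DST, PLEC and TCHP), EVPL in some and PKP1 in none, and 0 of 11 had H3K27me3. Among 11 transcription factors known to act on epithelial genes, TFAP2A, TFAP2C, KLF4, KLF5 and GRHL1 had H3K4me3 in all 6 libraries. TP63, GRHL3 and OVOL1 had it in some, and GRHL2, ZNF750 and ELF3 in none. Of 14 genes for other intermediate filaments, VIM and the nuclear lamins LMNA, LMNB1 and LMNB2 had it in all 6. Another 2, PRPH and SYNC, had it in the 3 OA and no vehicle libraries, a pattern of 0.874% of all genes. H3K27me3 was called in any library at 1 of 11 factors, OVOL1, and at 4 of 14 other filament genes, NES, INA, NEFL and NEFM. The share over all genes was 13.8%. For H3K4me3, none of these 3 lists had a gene called in at least 2 vehicle and no OA libraries, a pattern of 0.0699% of all genes. For H3K27me3 INA, a neuronal filament gene, was the only 1. The share of all genes with that H3K27me3 pattern was not counted.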

How the data were processed

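The authors deposited 1 peak list per CUT&RUN library, called separately: narrow peaks for H3K4me3 and IgG and broad peaks for H3K27me3. According to the methods, H3K4me3 peaks came from MACS2 (version 2.2.7.1) and H3K27me3 peaks from SICER2, although the broad lists have the MACS2 layout. The processing notes name hg38. The aligner, duplicate handling and use of IgG as control are not given in the sources used here. The fold column is the ratio of pileup to local background as the authors' caller gave it. The deposited −log10 p and −log10 q values are also the caller's, with q-values of at most 0.01 (narrow) or 0.1 (broad), and so is the score. None is scaled between libraries, and lists hold no reads per region, so the count test the study used could not be rerun.

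Peaks of the 6 vehicle and OA libraries of a mark on autosomes, X and Y were merged (at least 1 bp shared) and kept with a peak in at least 2 libraries, giving 18734 H3K4me3 and 32643 H3K27me3 regions. Start sites came from GENCODE release 44. The reads at a summit were solved from fold and p under the caller's Poisson model (100% of sampled peaks solved). Libraries were the replicates, from biological triplicate cultures, in two-sided exact permutation tests. Regions called in all 6 libraries were fitted in limma 3.58.1 (R 4.3.3) on median-centred log2 fold, highest peak per region. Calls and fits were tested on simulated data. Named genes were all basal, luminal and stress keratins, others with H3K4me3 in at least 2 or H3K27me3 in at least 4 libraries or without overlap between groups, and limma rows. The members and lists were chosen with earlier results of these data known. Alternatives are given in the closing section.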

Additional observations from a re-analysis of the deposited data

Results flagged for a closer look

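The 2 untreated H3K4me3 libraries entered no comparison and held keratin signal above the IgG controls. In untreated library 1, 7 keratins had a peak within 3 kb, and in untreated library 2 there were 6, against 1 and 0 in the IgG libraries. The 7 were KRT5, KRT14, KRT7, KRT8, KRT18, KRT6A and KRT17, and library 2 lacked KRT14. The IgG peak lay at the KRT5 start, covered 253 bp and had a fold of 4.84 on 13 reads, while the KRT5 summits of the H3K4me3 libraries lay 971 to 1231 bp downstream of that start.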

How the results depend on the processing

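Of 388 alternative values, 344 were scored as unchanged. Differences needed only the same sign, whatever their p, and counts a similar size. Fold differences by limma also needed the same side of the adjusted p threshold. For keratins with H3K4me3, the OA minus vehicle difference (−0.333) became 0.333 at a q-value of at most 1e-05 and 0 with merged regions of any library. It ranged from −1.33 to 1.17 with 1 library left out, rising above 0 without vehicle replicate 1 or 2. Covered length (439 bp) ranged from −2218 to 2436 bp. With 1 library left out, the basal and the stress differences ranged from −1 to 0. The stress difference was 0 at the stricter q-value, and the hair difference was 0.333 with merged regions of any library. Keratins in at least 2 vehicle and no OA libraries (2) ranged from 0 to 2, and OA-only keratins (1) became 0 with equal peak numbers. KRT14 and KRT6C differences became 0 without vehicle replicate 1 or 2. With 1 library left out, covered length differences ranged from −368 to 145 bp at KRT5, −279 to 521 at KRT7, 83.5 to 967 at KRT8, −16 to 160 at KRT18, −671 to 81.2 at KRT6A and −53 to 552 at KRT17. The KRT5 region overlaps an IgG peak, so its difference was 0 with such regions removed.

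For H3K27me3 the keratin difference (−0.333) became 0.667 with equal peak numbers, 0.333 in a 1 kb window and 0 at the stricter q-value. It ranged from −2.83 to 1.17 with 1 library left out, and covered length (−3338 bp) from −5705 bp without vehicle replicate 1 to −1540 bp without vehicle replicate 2. Covered length became −94 bp with equal peak numbers, −1633 bp in a 1 kb window, −5771 bp with peaks within 5 kb joined and 0 at the stricter q-value. Vehicle-only keratins (0) ranged up to 1 with 1 library left out. KRT26 became 61 bp with equal peak numbers and 302 bp with peaks within 5 kb joined. KRT31 (−550 bp) became 0 in a 1 kb window, and both became 0 at the stricter q-value. No H3K27me3 peak near a keratin passed that q-value, so its 0 values for this mark do not compare the groups. The KRT6A fold (−0.04) ranged from −0.26 to 0.16 with 1 library left out, and 0 of 7 keratin regions passed limma under every setting run. Apart from changes made by fewer peaks or libraries, the cause was not tested.

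The labels do not say whether equal replicate numbers mark paired cultures. Deviations of same-numbered libraries correlated at −0.045, 0.19 and −0.29 over 11071 regions, and those of differently numbered libraries at −0.36 to 0.25. With 3 libraries a group, these values cannot settle whether the samples were paired. With the replicate block, differences keep their size by construction (−0.333 keratins for each mark, 439 and −3338 bp, −0.667 basal and stress keratins, 0 luminal and hair keratins). The exact sign-flip p was 0.25 or more, and limma called 0 keratin regions. Exact permutation tests of 3 against 3 cannot go below p = 0.1.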
